A study of Mus musculus with 12 samples.

Results

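The 10 ERK feedback targets described here are Dusp4, Dusp5, Dusp6, Spry1, Spry2, Spry4, Spred1, Spred2, Etv4 and Etv5. Each was read from the locus that carried its symbol, and where several did, from the one with the highest mean value over the libraries. All 10 were found among 33864 loci, and all 10 were among the 13803 loci tested, which had 1 FPKM or more in 3 or more of the 12 libraries. FPKM is the number of fragments per kilobase of transcript, corrected for the depth of the library.

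Receptor tyrosine kinases such as EGFR and the ErbB receptors switch on Ras, Raf, MEK and the kinase ERK in turn, and ERK then induces genes whose products act back on the same chain. Dual-specificity phosphatases remove the activating phosphates from ERK and related kinases, Sprouty and Spred proteins act on the steps around Ras and Raf, and Etv4 and Etv5 are ETS transcription factors that carry the signal to further genes. The RNA of these genes is therefore often read as a measure of receptor tyrosine kinase signalling. In the oligodendrocyte lineage this chain is known for its part in precursor division and in the thickness of myelin.

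RNA was sequenced from subcortical white matter of 12 mice, 1 library for each, in 4 groups of 3. Sox10-tTA;TRE-dnEGFR mutants carried a dominant negative EGFR and their controls were TRE-dnEGFR littermates, all given doxycycline between postnatal days 21 and 35 and sampled at day 35. Sox10-tTA;TRE-ErbB2V664E mutants carried an activated form of ErbB2 and their controls were TRE-ErbB2V664E littermates, all given doxycycline between days 21 and 30 and sampled at day 30. The tetracycline transactivator was driven by Sox10, which marks the oligodendrocyte lineage, and all mice of a line carried its TRE transgene and received doxycycline. No group carried the transactivator alone, and the labels do not say in which direction doxycycline acted on the transgenes. The lines also differed in age and in the length of treatment, so a difference between them cannot be told apart from either.

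The low values of the table allowed an estimate of 16596881 to 24739584 fragments per library, at which 1 FPKM in a transcript of 2 kb stands for 33.2 to 49.5 fragments. Summed levels of 10 mature oligodendrocyte markers lay between 716 and 1928 FPKM over the 12 libraries, and all 10 were tested. Summed levels of 10 neuronal markers lay between 685 and 1032 FPKM. Egfr itself was at 2.85, 3.08 and 2.77 FPKM in dnEGFR mutants, against 2.64, 3.32 and 3.1 FPKM in their controls. Erbb2 was at 0.865, 0.833 and 0.894 FPKM in ErbB2V664E mutants, against 0.97, 0.96 and 0.772 FPKM in their controls. The labels give neither species nor sequence of the transgenes, so these levels do not check the labels. In tissue pieces such as these, fewer cells of a type and less RNA per cell cannot be told apart.

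No ERK feedback target passed the test between mutants and littermate controls in either line. On the log2(FPKM + 1) scale, limma with Benjamini-Hochberg adjustment over all 13803 loci called 0 of the 10 in the dnEGFR line, where 0.0942% of all loci were called, and 0 of 10 had an unadjusted p under 0.05, against 5.69% of all loci. In the ErbB2V664E line 0 of 10 were called, where 0.275% of all loci were called, and again 0 of 10 had an unadjusted p under 0.05, against 12.1% of all loci. The difference between the effects of both lines was called for 0 of 10, against 0.116% of all loci, and 0 of 10 had an unadjusted p under 0.05, against 9.01% of all loci. In every member and in both lines the mutant and control libraries overlapped. Over all loci they did not overlap at 10.1% in the dnEGFR line and 18.2% in the ErbB2V664E line. With only 10 members, 0 does not set them apart from these shares.

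The changes lay on both sides of 0. In the dnEGFR line 6 members had a positive and 4 a negative log2 change, with a median of 0.06, and over all loci 51.4% were positive with a median of 0.01. Leaving out Spry4, which was listed at 0 in 2 libraries of that line, it was 5 positive and 4 negative with a median of 0.07. In the ErbB2V664E line 6 were positive and 4 negative, also with a median of 0.06, and over all loci 50.8% were positive with a median of 0.00. The precision differed widely between members. The 95% interval of the log2 change reached 0.23 to either side of the estimate for Spry1 and 2.06 for Spred1 in the dnEGFR line. It stayed within 1 log2 unit on either side of 0 for 7 of 10 members in the dnEGFR line and 6 of 10 in the ErbB2V664E line.

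**Figure D1:**
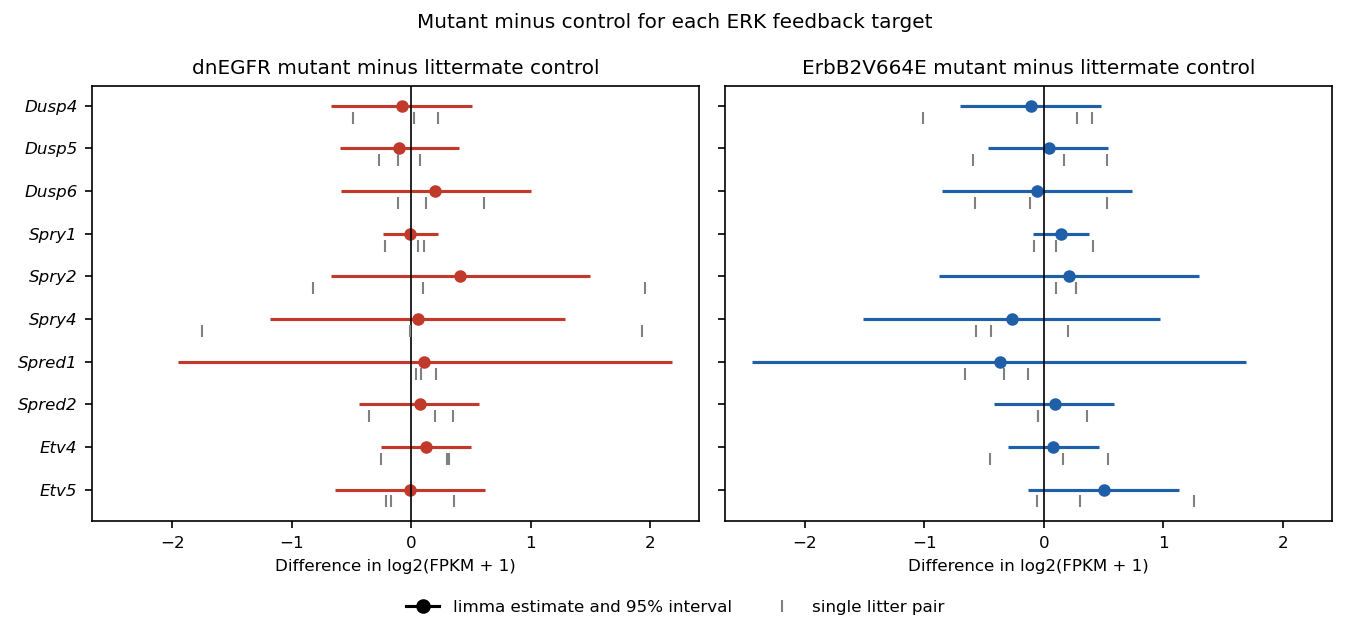
Log2 change on the log2(FPKM + 1) scale (horizontal axis) of each ERK feedback target in dnEGFR mutants against their controls and in ErbB2V664E mutants against theirs, with bars for the 95% interval from limma and small ticks for the difference in each litter pair. Every interval crosses 0, and in the dnEGFR line it reaches 0.23 to either side for Spry1 and 2.06 for Spred1.

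Levels per length of transcript placed Etv5 highest, at a mean of 15.4 FPKM over the 12 libraries, before Spred1 at 12.5 FPKM, Dusp6 at 10.6 FPKM and Spry2 at 7.55 FPKM. Spred2 at 5.52 FPKM and Dusp5 at 4.26 FPKM came next. Spry4 at 2.41 FPKM, Dusp4 at 2.28 FPKM, Etv4 at 2.19 FPKM and Spry1 at 2.1 FPKM were lowest. The place of Spred1 rests on the 4 libraries numbered 2, and over the other 8 libraries it averaged 5.47 FPKM, below Dusp6 at 10.4 FPKM and Spry2 at 7.97 FPKM. Neighbours in this order overlapped in their ranges over the libraries in every case. The highest library of a gene was 8.69 times its lowest for Spred1, 5.49 times for Spry2 and 3.67 times for Dusp6, but only 1.93 times for Spry1.

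**Figure D2:**
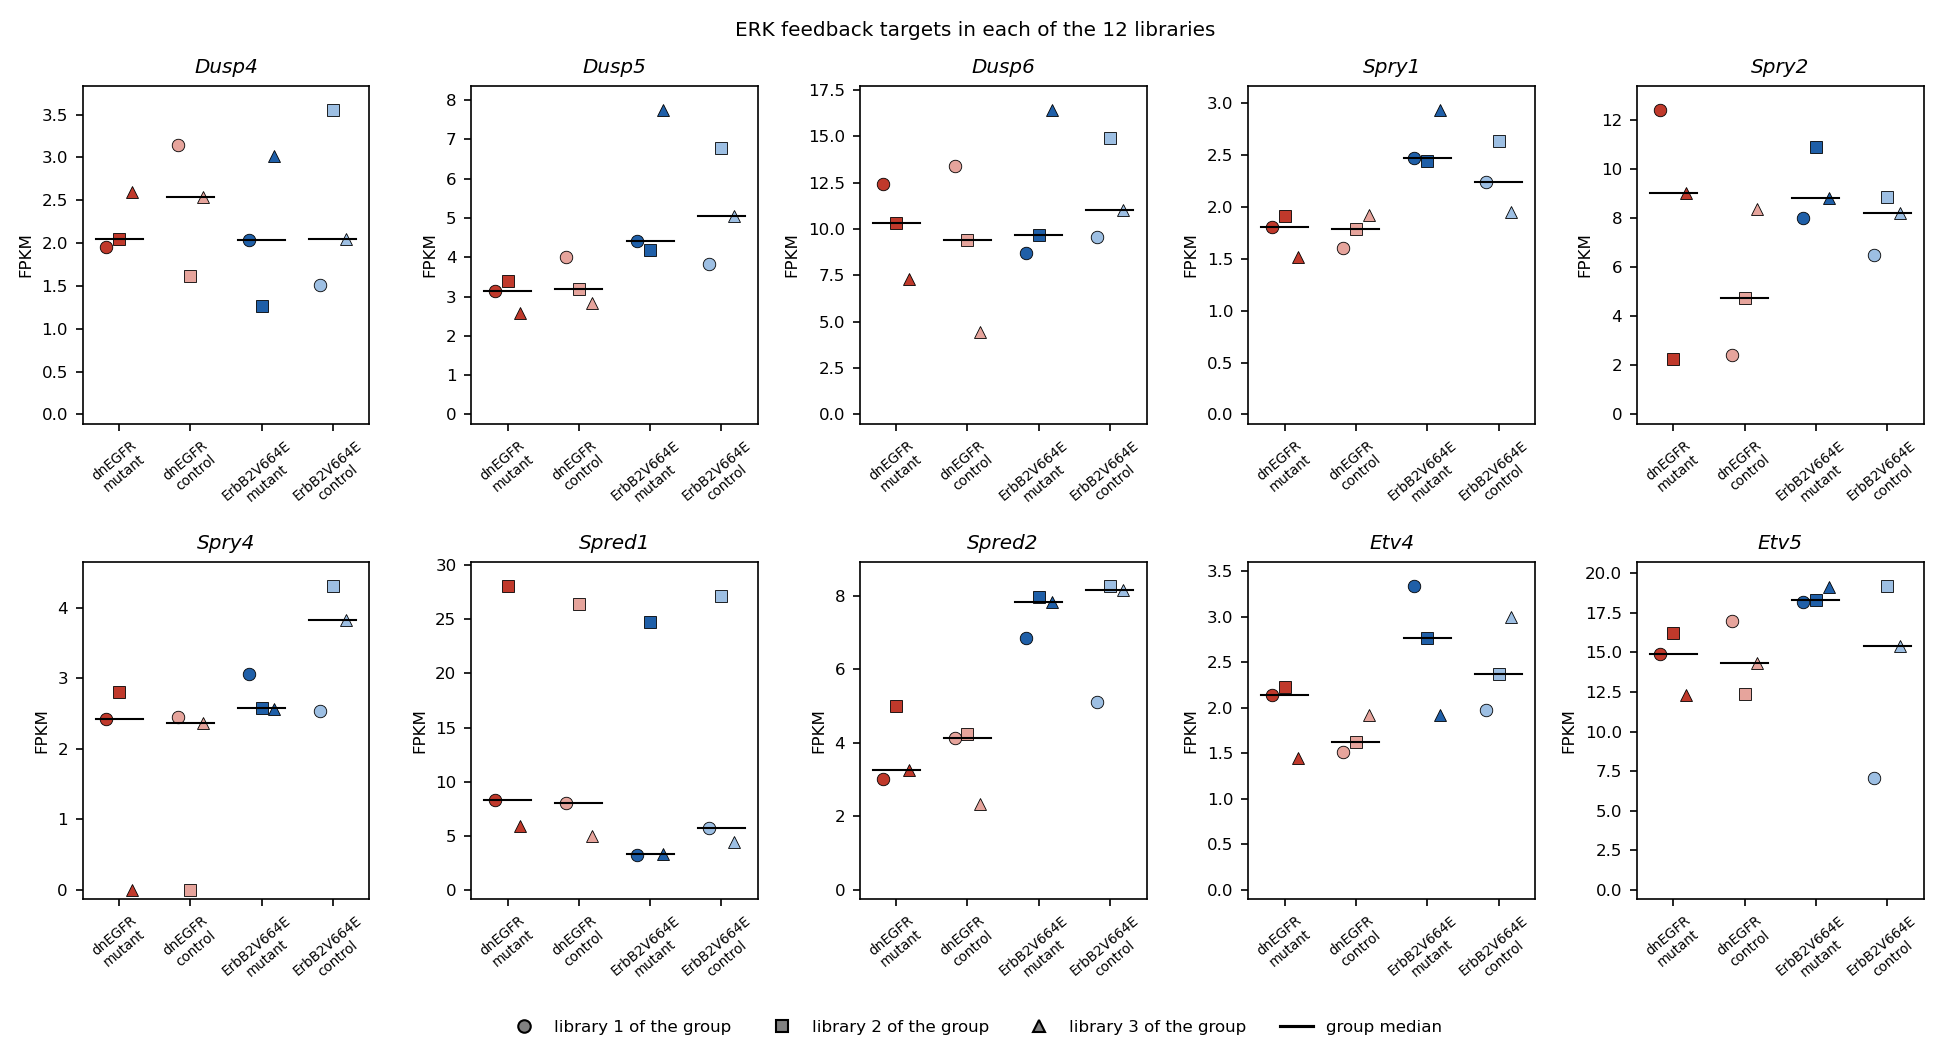
FPKM (vertical axis, from 0, with its own scale for each gene) of the 10 ERK feedback targets in each of the 12 libraries, with a symbol for the number of the library within its group and a line at the group median. Mutant and control symbols overlap for every gene in both lines, the 4 libraries numbered 2 stand high for Spred1, and 2 libraries of the dnEGFR line are at 0 for Spry4.

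The phosphatases are described first. The 250 bases before the start of Dusp5 and of Dusp6 are shown because these genes went up and down together between libraries, as some other pairs of members did. The motifs marked in them differ, and a link of the motifs to the levels was not tested. The sequences are from RefSeq, build GRCm38.p6, on the plus strand at chr19:53528895-53529144 for Dusp5 and chr10:99262981-99263230 for Dusp6. Of the 10 members, 7 had an entry in the promoter table used, with 8 start sites. Capitals mark CArG boxes, the element bound by serum response factor, in Dusp5, and CGGAAG, an ETS core read on either strand, in Dusp6.
Dusp5: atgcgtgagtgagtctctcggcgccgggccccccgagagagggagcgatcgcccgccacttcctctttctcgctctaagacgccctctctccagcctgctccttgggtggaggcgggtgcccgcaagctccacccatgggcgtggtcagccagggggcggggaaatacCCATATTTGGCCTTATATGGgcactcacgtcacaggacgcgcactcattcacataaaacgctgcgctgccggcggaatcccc
Dusp6: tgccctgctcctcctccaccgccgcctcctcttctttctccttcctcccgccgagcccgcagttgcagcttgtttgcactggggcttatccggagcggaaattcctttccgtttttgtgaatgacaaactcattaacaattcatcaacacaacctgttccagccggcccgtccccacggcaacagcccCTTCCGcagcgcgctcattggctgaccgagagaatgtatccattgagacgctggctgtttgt

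Both CArG boxes of Dusp5, CCATATTTGG and CCTTATATGG, lie side by side and begin 82 and 72 bases before the start. At least 1 CArG box, searched on both strands, was found in 1.47% of 32851 promoter windows of this length, and at least 2 in 0.0183%. Dusp5 alone held one among the 8 windows of members. The single CTTCCG of Dusp6, the reverse complement of CGGAAG, begins 62 bases before the start. CGGAAG on either strand was found in 13.6% of windows, and among members in those of Dusp6, Spred1 and Spred2. The element TGACGTCA, bound by CREB, was in none of the 8 windows and in 1.55% of all windows. A match of letters is a description and does not show that a factor binds there.

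Dusp6, a cytoplasmic phosphatase that acts on ERK, was the most abundant of the phosphatases. It was at 12.4, 10.3 and 7.32 FPKM in dnEGFR mutants, against 13.4, 9.39 and 4.47 FPKM in their controls. The lowest library was a control and the ranges lay over each other. ErbB2V664E mutants had 8.69, 9.67 and 16.4 FPKM, against 9.56, 14.9 and 11.0 FPKM in their controls. The log2 change was 0.20 (95% interval -0.59 to 1.00) in the dnEGFR line and -0.06 (-0.85 to 0.74) in the ErbB2V664E line. The sign was not the same in all litters of either line, with mutants higher than their littermates in 2 of 3 litters of the dnEGFR line and in 1 of 3 of the ErbB2V664E line.

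Dusp5, a nuclear phosphatase that acts on ERK, was at 3.15, 3.4 and 2.57 FPKM in dnEGFR mutants, against 4.0, 3.18 and 2.84 FPKM in their controls. ErbB2V664E mutants had 4.42, 4.18 and 7.74 FPKM, against 3.83, 6.79 and 5.05 FPKM in their controls. The highest ErbB2V664E libraries for Dusp5 were mutant 3 and control 2, as for Dusp6. Its log2 change was -0.10 (-0.60 to 0.40) in the dnEGFR line and 0.04 (-0.47 to 0.54) in the ErbB2V664E line.

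Dusp4, a nuclear phosphatase of ERK and related kinases, was at 1.96, 2.05 and 2.6 FPKM in dnEGFR mutants, against 3.15, 1.61 and 2.54 FPKM in their controls. ErbB2V664E mutants had 2.04, 1.27 and 3.02 FPKM, against 1.51, 3.55 and 2.05 FPKM in their controls. Controls held both the highest and the lowest library in the dnEGFR line. On the log2 scale the change of Dusp4 was -0.08 (-0.67 to 0.51) in the dnEGFR line and -0.11 (-0.70 to 0.48) in the ErbB2V664E line. The symbol stood at 2 loci, and the one used here, with the higher mean, held no Ensembl transcript. The other, with the annotated transcript of 2740 bases, averaged 0.771 FPKM and reached 1 FPKM in 2 libraries.

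Within the ErbB2V664E line the phosphatases followed each other from library to library. Over its 6 libraries Pearson's r on the log2(FPKM + 1) scale was 0.91 for Dusp4 with Dusp5, 0.84 for Dusp4 with Dusp6 and 0.96 for Dusp5 with Dusp6. Over the 6 libraries of the dnEGFR line it was 0.19, -0.08 and 0.73 for the same pairs, so that only Dusp5 with Dusp6 had a high value in both lines. After subtracting group means, r over the 12 libraries was 0.75, 0.39 and 0.80. Such values were not particular to the phosphatases, and other pairs of members were high, low or negative. In the ErbB2V664E line r was 0.90 for Spred2 with Etv5, and in the dnEGFR line 0.91 for Spry4 with Etv5. Over the 12 libraries Dusp5 had a higher r with Spred2, at 0.83, than with Dusp6, at 0.73. All of these are descriptions over libraries that each hold all the genes named, and no p is given.

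Fos and Egr1 were high in the same libraries of the ErbB2V664E line as Dusp5 and Dusp6. Arc was high there in control 2 and control 3, but not in mutant 3. Other early response genes are not given library by library. Fos, an immediate early transcription factor gene, was at 8.78, 6.46 and 13.2 FPKM in ErbB2V664E mutants, against 8.23, 13.9 and 15.4 FPKM in their controls. Egr1, another immediate early gene, which was chosen after its values were seen, was at 75, 55.7 and 95.2 FPKM in ErbB2V664E mutants, against 77.4, 125 and 103 FPKM in their controls. Mutant 3, control 2 and control 3 were the 3 highest libraries of that line for Dusp5, Dusp6, Fos and Egr1. Arc, a synaptic immediate early gene, was at 138, 20.6 and 87.5 FPKM in ErbB2V664E mutants, against 102, 230 and 225 FPKM in their controls, so that mutant 3 was below mutant 1 and control 1. In the dnEGFR line Egr1 was at 55.2, 3.15 and 35.8 FPKM in mutants, against 53.1, 9.31 and 49.2 FPKM in controls. The low libraries for Egr1 there, mutant 2 and control 2, were not low for Dusp5 or Dusp6.

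**Figure D3:**
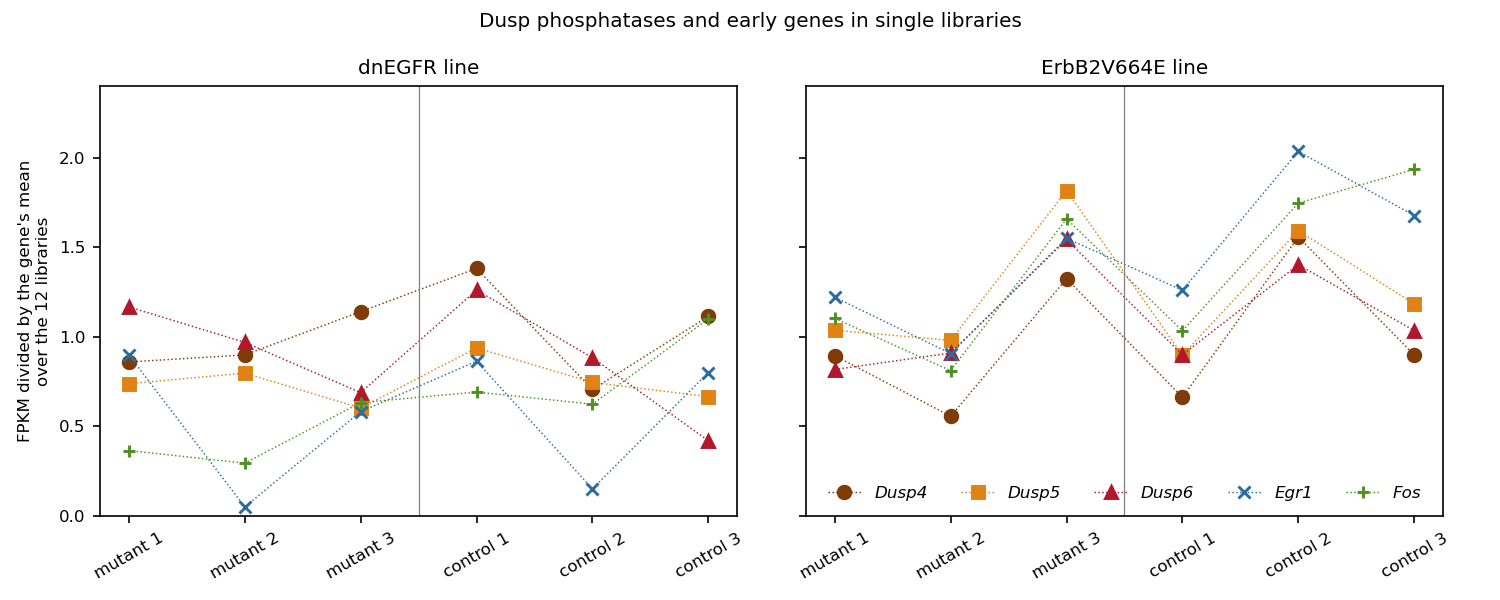
FPKM divided by the mean of the gene over the 12 libraries (vertical axis) for Dusp4, Dusp5, Dusp6, Egr1 and Fos in each library (horizontal axis), mutants left of controls, with the dnEGFR line in the left panel and the ErbB2V664E line in the right panel. In the ErbB2V664E line mutant 3 and control 2 are high for all 5 genes, and in the dnEGFR line mutant 2 and control 2 are the lowest for Egr1 and not for Dusp5 or Dusp6.

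Sprouty proteins, which hold back Ras activation by receptors, are the next group. Spry1 was at 1.81, 1.91 and 1.52 FPKM in dnEGFR mutants, against 1.6, 1.79 and 1.92 FPKM in their controls. ErbB2V664E mutants had 2.47, 2.44 and 2.93 FPKM, against 2.24, 2.63 and 1.95 FPKM in their controls. Spry1 varied least and was the most precisely measured member. Its log2 change was -0.01 (SE 0.10, 95% interval -0.24 to 0.22) in the dnEGFR line and 0.14 (SE 0.10, -0.09 to 0.38) in the ErbB2V664E line.

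Spry2 was at 12.4, 2.26 and 9.03 FPKM in dnEGFR mutants, against 2.44, 4.74 and 8.38 FPKM in their controls. The lowest and the highest of its 12 libraries were thus both dnEGFR mutants. Litter by litter the log2 difference of mutant and littermate in that line was 1.96, -0.82 and 0.10. ErbB2V664E mutants had 8.01, 10.9 and 8.84 FPKM, against 6.49, 8.86 and 8.21 FPKM in their controls, and the litter differences of 0.27, 0.27 and 0.10 all had the same sign. The fitted log2 change was 0.41 (-0.67 to 1.50, limma adjusted p = 0.998) in the dnEGFR line and 0.21 (-0.88 to 1.30, limma adjusted p = 0.911) in the ErbB2V664E line. The dnEGFR value was 0.005 without mutant 1 and 1.02 without mutant 2.

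Spry4 was listed at 0 in 2 libraries, both of the dnEGFR line. It was at 2.42, 2.81 and 0 FPKM in dnEGFR mutants, against 2.45, 0 and 2.36 FPKM in their controls. The other 4 libraries of the line lay close together, between 2.36 and 2.81 FPKM. Of the 13803 tested loci 6.93% were listed at 0 in at least 1 library, and 1.15% were so while another library reached 10 FPKM. Because of these 0 values no fold is given for that line, and its fitted change follows which of these libraries is in the model. ErbB2V664E mutants had 3.06, 2.58 and 2.56 FPKM, against 2.54, 4.31 and 3.82 FPKM in their controls. The log2 change in the ErbB2V664E line was -0.27 (-1.51 to 0.97), an interval that is wide because the model shares its estimate of the spread with the libraries at 0.

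Spred proteins sit at the membrane and bring neurofibromin, which switches Ras off, to it. Spred1 was at 8.31, 28.1 and 5.89 FPKM in dnEGFR mutants, against 8.03, 26.4 and 4.94 FPKM in their controls. ErbB2V664E mutants had 3.23, 24.8 and 3.29 FPKM, against 5.69, 27.2 and 4.4 FPKM in their controls. The library numbered 2 was far above the other 2 in all 4 groups. The 4 libraries numbered 2 all lay above the other 8 at 16 of 13803 loci, or 0.116%, and Spred1 was the only member among them. Number 2 stands for a different litter in each line, and the labels give no shared batch for it. The locus holds annotated transcripts of 1440 and 6016 bases.

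Because of these libraries Spred1 had the widest intervals of all members. Its log2 change was 0.11 (SE 0.93, -1.95 to 2.18) in the dnEGFR line and -0.37 (SE 0.93, -2.44 to 1.69) in the ErbB2V664E line. Between littermates the values were much closer. The log2 difference within litters was 0.04, 0.08 and 0.21 in the dnEGFR line, and -0.66, -0.13 and -0.33 in the ErbB2V664E line, where all 3 mutants were below their littermates. With litter as a block, the SE of the change was 0.123, against 0.93 without it, and limma's adjusted p was 0.983 in the dnEGFR line and 0.356 in the ErbB2V664E line.

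Spred2 was at 3.02, 5.01 and 3.25 FPKM in dnEGFR mutants, against 4.13, 4.23 and 2.34 FPKM in their controls. ErbB2V664E mutants had 6.86, 7.97 and 7.84 FPKM, against 5.12, 8.27 and 8.16 FPKM in their controls. Each range of mutants lay within or across that of its controls. For Spred2 the log2 change was 0.07 (-0.44 to 0.57) in the dnEGFR line and 0.09 (-0.42 to 0.59) in the ErbB2V664E line. Unlike Spred1, it did not set the libraries numbered 2 apart from the rest.

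Etv4 and Etv5, ETS factors of the PEA3 group, are repressed by Capicua, the product of Cic, until ERK signalling relieves that repression. The 250 bases before one of the start sites of Etv5 are shown because this window holds 3 copies of TGAATG. These 6 bases are part of Capicua's longer element, and the motif was chosen after the sequences were read. The whole element was not searched, so the copies are not shown to be Capicua sites. The window is from RefSeq, build GRCm38.p6, minus strand, chr16:22438369-22438618, with the copies on either strand in capitals.
Etv5: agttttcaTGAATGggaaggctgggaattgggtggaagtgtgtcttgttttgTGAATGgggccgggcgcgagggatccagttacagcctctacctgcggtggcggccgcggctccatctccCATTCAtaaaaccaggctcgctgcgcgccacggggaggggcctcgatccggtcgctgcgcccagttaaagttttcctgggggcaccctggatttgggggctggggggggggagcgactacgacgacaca

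The copies begin 242, 198 and 129 bases before the start, and the last is read as CATTCA. At least 3 copies on both strands together were found in 43 of 32851 windows, or 0.131%, and at least 1 in 10.9%. The motif was chosen after the sequences were read, so these shares do not mark Etv5 as unusual. Among the members, 3 of 8 windows held at least 1 copy, from Dusp5, Dusp6 and Etv5. The Dusp5 and Dusp6 windows printed above leave theirs in lower case.

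Etv5 was at 18.2, 18.3 and 19.1 FPKM in ErbB2V664E mutants, against 7.04, 19.2 and 15.4 FPKM in their controls. It was the member with the smallest p in that line. The mutants lay close together and the controls did not, at 18.5 ± 0.516 FPKM in mutants and 13.9 ± 6.21 FPKM in controls (SD, n = 3 each). The log2 change was 0.50 (SE 0.28, -0.13 to 1.13, limma adjusted p = 0.524), with mutants above their littermates in 2 of 3 litters. Control 1 is low, and without it the log2 change was 0.104. In dnEGFR mutants Etv5 was at 14.9, 16.2 and 12.3 FPKM, against 17.0, 12.4 and 14.3 FPKM in their controls, a log2 change of -0.01 (-0.64 to 0.62). The difference between both effects was 0.50 (-0.39 to 1.39, limma adjusted p = 0.739).

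Etv4 was at 2.14, 2.23 and 1.45 FPKM in dnEGFR mutants, against 1.52, 1.62 and 1.92 FPKM in their controls. ErbB2V664E mutants had 3.34, 2.77 and 1.92 FPKM, against 1.98, 2.37 and 3.0 FPKM in their controls. In each line 2 of 3 mutants were above their littermates and the mutant of the third litter was below. For Etv4 the log2 change was 0.12 (-0.25 to 0.50) in the dnEGFR line and 0.08 (-0.30 to 0.46) in the ErbB2V664E line. Cic was at 16.6, 17.3 and 16.1 FPKM in ErbB2V664E mutants, against 16.5, 16.2 and 18.1 FPKM in their controls. In dnEGFR mutants it was at 7.45, 6.29 and 7.31 FPKM, against 7.55, 7.31 and 6.41 FPKM in their controls.

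Levels of the members were also compared between the lines. All 6 ErbB2V664E-line libraries were above all 6 dnEGFR-line libraries for Spry1 and Spred2, 2 of 10 members, against 10.5% of all loci. Spry1 lay between 1.95 and 2.93 FPKM in the ErbB2V664E line and between 1.52 and 1.92 FPKM in the dnEGFR line. These ranges nearly met, and they overlapped when the libraries were rescaled to the same total. Spred2 lay between 5.12 and 8.27 FPKM in the ErbB2V664E line and between 2.34 and 5.01 FPKM in the dnEGFR line, and stayed apart after that rescaling and after quantile normalization.

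Among controls alone, the 3 ErbB2V664E-line libraries were above the 3 dnEGFR-line libraries for Spry1, Spry4, Spred2 and Etv4, 4 of 10 members, against 21.6% of all loci. After rescaling to the same total this held for Spred2 alone, 1 of 10 members, against 16.4% of all loci, and after quantile normalization for Spry1, Spred2 and Etv4, against 18.9%. The line means of log2(FPKM + 1) were higher in the ErbB2V664E line for 8 of 10 members, with a median difference of 0.33, against 51.5% of all loci with a median of 0.02. After rescaling they were higher for 7 of 10, with a median of 0.24, against 42.2% of all loci with a median of -0.08. As deposited, the exceptions were Dusp4 at -0.06 and Spred1 at -0.42. No test was made, since line, age and length of treatment cannot be told apart.

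Of the rest of the pathway, 81 genes in 5 lists are described here, of which 74 were tested. In dnEGFR mutants limma called 0 of these 74 after adjustment over all loci, with 5 at an unadjusted p under 0.05. In ErbB2V664E mutants it called 0 of these 74, with 11 at an unadjusted p under 0.05. Over all loci 5.69% and 12.1% had an unadjusted p under 0.05 in the dnEGFR and ErbB2V664E lines. These shares also stand beside the counts of the single lists below. The median log2 change of the 74 was 0.00 in dnEGFR mutants and -0.12 in ErbB2V664E mutants.

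The receptors upstream had 13 tested genes and 0 called in either line, with 0 at an unadjusted p under 0.05 in dnEGFR mutants and 4 in ErbB2V664E mutants, all 4 lower. Erbb2 itself was not among the genes tested, since it lay between 0.316 and 0.97 FPKM over the 12 libraries, below the filter. Their median log2 change was -0.04 in dnEGFR mutants and -0.17 in ErbB2V664E mutants. Erbb3, the partner of ErbB2 for neuregulin signals, was at 3.13 ± 1.30 FPKM in ErbB2V664E mutants and 8.43 ± 0.789 FPKM in their controls (SD, n = 3 each). Its log2 change of -1.23 missed the threshold, with a limma adjusted p of 0.081. Leaving out 1 library at a time, the change of Erbb3 ran between -1.47 without mutant 1 and -1.03 without mutant 3. The smallest limma adjusted p of these fits was 0.0157, without mutant 1, where 262 loci were called against 38 with all libraries. Erbb3 was not called with litter as a block, nor when the line was fitted on its own 6 libraries. Summed mature oligodendrocyte markers were at 716 to 1169 FPKM in ErbB2V664E mutants and 1191 to 1928 FPKM in their controls, and their part in the level of Erbb3 was not tested.

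The cascade between adaptors and ERK is described by 17 tested genes, of which 0 were called in either line. At an unadjusted p under 0.05 were 0 in dnEGFR mutants and 3 in ErbB2V664E mutants, 2 of them higher. The median log2 change of the 17 was 0.04 in dnEGFR mutants and -0.14 in ErbB2V664E mutants. Mapk3, which encodes one of the ERK kinases, was the most abundant, at 37.9 ± 6.02 FPKM in dnEGFR mutants and 34.5 ± 5.07 FPKM in their controls (SD, n = 3 each). It was at 53.6 ± 10.8 FPKM in ErbB2V664E mutants and 52.2 ± 12.7 FPKM in their controls (SD, n = 3 each).

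Other negative regulators of the cascade had 18 tested genes and 0 called in either line. At an unadjusted p under 0.05 were 3 in dnEGFR mutants, all higher, and 2 in ErbB2V664E mutants, both lower. The median log2 change of the 18 was 0.21 in dnEGFR mutants and -0.05 in ErbB2V664E mutants. Pea15a, whose product holds ERK in the cytoplasm, had the smallest p in dnEGFR mutants, with a log2 change of 1.27 (SE 0.41, limma adjusted p = 0.689). The 9 ETS factor genes with Cic had 0 called in either line. At an unadjusted p under 0.05 were 1 in dnEGFR mutants, which was lower, and 0 in ErbB2V664E mutants. The medians of the 9 were 0.00 in dnEGFR mutants and -0.11 in ErbB2V664E mutants.

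Other transcripts induced through ERK had 17 tested genes and 0 called in either line. At an unadjusted p under 0.05 were 1 in dnEGFR mutants and 2 in ErbB2V664E mutants, all of them lower. The medians of the 17 were -0.10 in dnEGFR mutants and -0.07 in ErbB2V664E mutants. Fos had the smallest p in dnEGFR mutants, with a log2 change of -0.75 (SE 0.32, limma adjusted p = 0.865), and -0.37 in ErbB2V664E mutants. Arc, the most abundant of the list, had a log2 change of -1.45 (SE 0.62, limma adjusted p = 0.386) in ErbB2V664E mutants and -0.35 in dnEGFR mutants. The ErbB2V664E value was -0.66 without mutant 2.

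**Figure D4:**
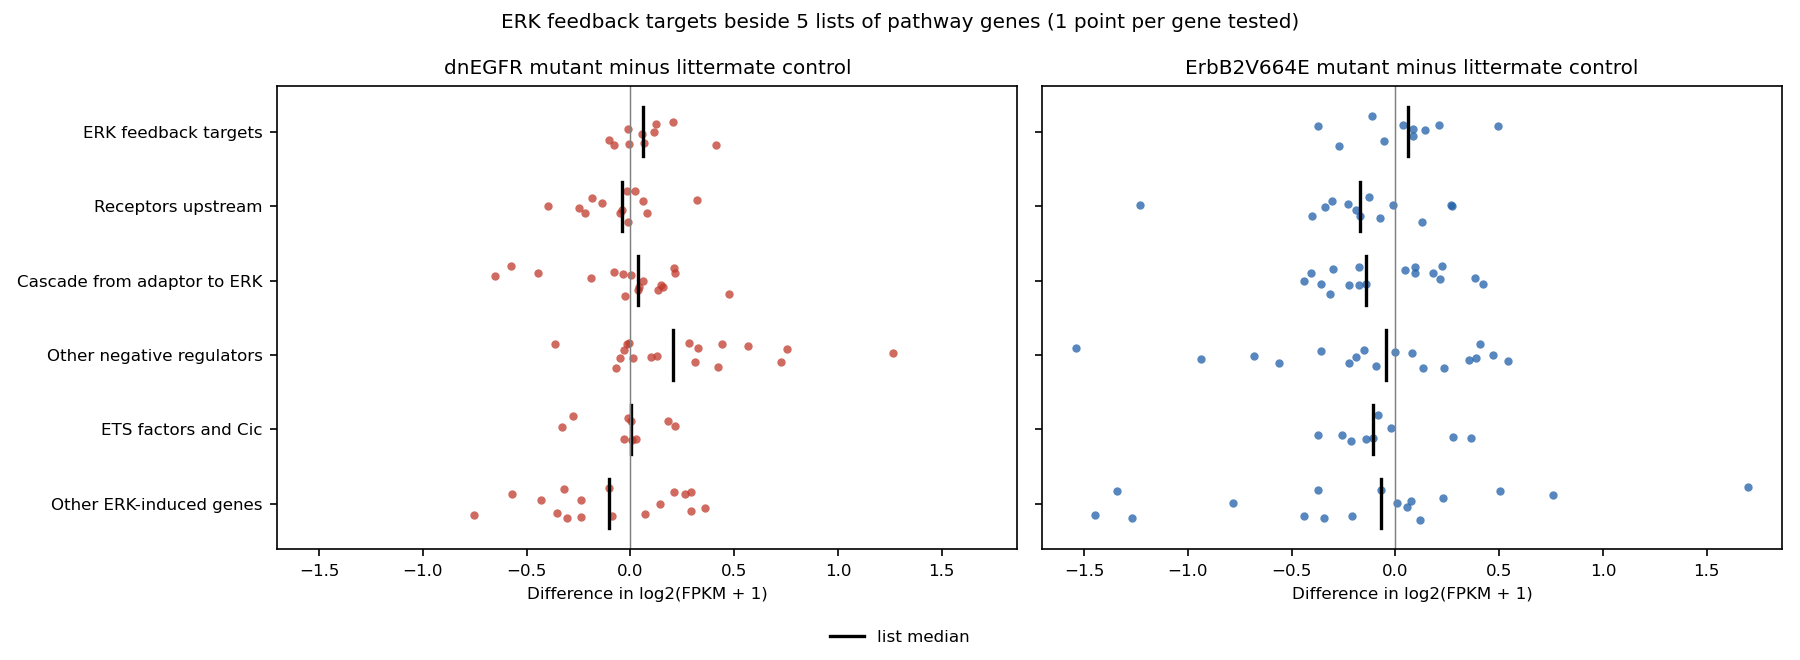
Log2 change on the log2(FPKM + 1) scale of each tested gene (1 point per gene) in the ERK feedback targets and in the 5 other lists, in dnEGFR mutants against their controls and in ErbB2V664E mutants against theirs, with a bar at each list's median. The medians lie between -0.17 and 0.21, and Erbb3 lies at -1.23 in the ErbB2V664E line.

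Summed levels of some cell type markers did not overlap between mutants and controls of the ErbB2V664E line. Among single loci 18.2% did not overlap in that line, and a sum follows its most abundant genes. The log2 change was positive for 0 of 10 tested mature and 2 of 9 newly formed oligodendrocyte markers. It was positive for 3 of 9 astrocyte and 8 of 10 endothelial markers. Besides mature oligodendrocyte markers, the summed levels of newly formed oligodendrocyte markers, at 78.7 to 102 FPKM in mutants and 104 to 134 FPKM in controls, did not overlap. Astrocyte markers, at 237 to 276 FPKM in mutants and 301 to 454 FPKM in controls, did not overlap either. Endothelial markers did not overlap in the other direction, at 63.4 to 67.1 FPKM in mutants and 49.7 to 59.8 FPKM in controls. Precursor markers, at 39.8 to 57.7 FPKM in mutants and 49.1 to 58.8 FPKM in controls, and neuronal markers, at 803 to 1000 FPKM in mutants and 846 to 1008 FPKM in controls, did. In the dnEGFR line, mature oligodendrocyte markers were at 1103 to 1304 FPKM in mutants and 1066 to 1259 FPKM in controls. Striatal neuron markers there were at 175 to 424 FPKM in mutants and 142 to 220 FPKM in controls. Of these lists' markers, Cldn5 of the endothelial list was listed at 0 in at least 1 library and no other was, and their part in the levels of the feedback targets was not tested.

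Members were left out of the search for loci most alike each of them, which ran over the other tested loci with a symbol. The loci most alike each member over the 12 libraries were taken by Pearson's r on the log2(FPKM + 1) scale. For Dusp4 these were Tm9sf4 (r = 0.830) and 2900011O08Rik (0.818), for Dusp5 Cdipt (0.913) and Sik1 (0.901), and for Dusp6 Mapk14 (0.809) and Gid4 (0.807). For Spry1 they were Rilpl1 (0.940) and Lsr (0.927), for Spry2 Adgre5 (0.923) and Lrrtm2 (0.917), and for Spry4 Gm6710 (0.979) and D17Wsu92e (0.970). Cttnbp2nl (0.920) and Snx16 (0.896) were most like Spred1, and Clstn3 (0.966) and Abcg4 (0.966) most like Spred2. Hsf1 (0.931) and St5 (0.891) were most like Etv4, and Gm11549 (0.948) and Ppme1 (0.932) most like Etv5. How members compare with each other was thus not part of this search. These values are the highest of that search for each gene and share the libraries and their depth, so they are descriptions only.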

How the data were processed

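Polyadenylated RNA of 12 mice was sequenced in paired ends, and the labels' protocols name no step that keeps strand, so overlapping genes cannot be separated. Per the labels' design text, the deposited FPKM came from StringTie, and the submitters' processing notes add HISAT. Tool versions, genome build and annotation were not given in the sources used here. From these FPKM, limma 3.58.1 (R 4.3.3) tested log2 of FPKM plus a pseudocount of 1, with 1 mean per group, all 12 libraries, a variance trend, 8 residual and 2.03 prior degrees of freedom, two-sided. Loci needed 1 FPKM in 3 libraries. Benjamini-Hochberg adjustment ran over 13803 loci (threshold 0.05), and p-values measure the spread between mice. A fold change on this scale understates that of low genes. The script was tested on simulated data. Python 3.11.15 with pandas 2.3.3 made the tables (numpy 2.4.6) and matplotlib 3.10.9 the figures.

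The members and lists were chosen with earlier results of these data known. Named were all members, the 2 loci most alike each, and from the lists any gene called, the most abundant gene and the gene with the smallest p in each line, of which some are left out. Of the lists, 2 genes are not reported here, and the counts of the lists leave them out. The descriptions name the littermate of each control, so litters give pairs. Within the 6 litters, deviations from group means correlated at 0.02, 0.01, 0.03, 0, 0.01 and -0.03.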

Additional observations from a re-analysis of the deposited data

How the results depend on the processing

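Under 21 alternatives (other pseudocounts, filters, scalings, loci or models, and each library left out) 0 of the 10 ERK feedback targets were called in either line, and 0 in the difference, which fitting each line on its own does not give and which was thus run under 20. Of 620 values of members under an alternative, 559 kept the direction and 61 reversed it, 53 of these by leaving out 1 library, and the smallest limma adjusted p was 0.313. Leaving out 1 library at a time, the number of loci called ran between 9 and 36 in the dnEGFR line, 16 and 262 in the ErbB2V664E line (262 without mutant 1) and 15 and 42 for the difference. The log2 changes with a reversal then ran over -0.265 to 0.069 for Dusp4, -0.184 to 0.006 for Dusp5, -0.183 to 0.517 for Dusp6, -0.058 to 0.049 for Spry1, -0.532 to 0.674 for Spry4, -0.506 to 0.749 for Spred1, -0.144 to 0.178 for Spred2 and -0.111 to 0.102 for Etv5 in the dnEGFR line. In the ErbB2V664E line they ran over -0.315 to 0.130 for Dusp4, -0.206 to 0.211 for Dusp5, -0.314 to 0.111 for Dusp6, -1.240 to 0.370 for Spred1, -0.110 to 0.190 for Spred2, -0.046 to 0.239 for Etv4 and -0.119 to 0.692 for Pea15a. For the difference they ran over -0.234 to 0.210 for Dusp4, -0.105 to 0.312 for Dusp5, -0.573 to 0.127 for Dusp6, -0.813 to 0.207 for Spry2, -0.944 to 0.262 for Spry4, -1.354 to 0.255 for Spred1, -0.176 to 0.232 for Spred2 and -0.171 to 0.115 for Etv4. Rescaling to the same total gave -0.001 for Dusp5 in the ErbB2V664E line. Without the library numbered 2 of every group, an alternative chosen after seeing the data, the log2 change was -0.879 for Spry4 and -0.002 for Spred2 in the dnEGFR line, 0.338 for Dusp4 and 0.206 for Dusp6 in the ErbB2V664E line, and the difference was 0.570 for Dusp4, 0.758 for Spry4 and 0.009 for Etv4. That setting called 33 loci in the dnEGFR line and 9 in the ErbB2V664E line, and fitting each line on its own 6 libraries called 22 and 23. With litter as a replicate block, 3 loci were called in the dnEGFR line, 7 in the ErbB2V664E line and 4 for the difference, against 13, 38 and 16 without it, and the block changed no call of a member. In the dnEGFR line the Spry4 values follow which library at 0 is left out, control 2 for the lowest and mutant 3 for the highest. The cause of the other moves was not tested. With 3 libraries per group and no block, changes smaller than an interval's reach to either side could not give an unadjusted p under 0.05. With litter as a block the reach was another, and for Spred1 the SE was 0.123 against 0.93. A call after adjustment over all loci needed larger changes still.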
